A study of Mus musculus with 20 samples.

Results

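The genes described here encode the proteins of the cytosolic ribosome. They were taken as every gene of the 6 count tables whose symbol starts with Rpl (large, 60S subunit) or Rps (small, 40S subunit) and goes on with a number, with at most a letter and a digit after it, or reads Rplp0, Rplp1, Rplp2 or Rpsa. This pattern found 83 of the 37681 genes in each table, 50 of the large and 33 of the small subunit, and measured values played no part in it. Of the 83, 80 reached 5 reads in 5 or more of the 10 libraries of a table, in at least 1 table, and were tested among 15578 such genes. The other 3, Rpl3l, Rpl10l and Rpl39l, had at most 5, 2 and 3 reads in a library, and a fold change was not computed for them.

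Liver RNA was taken from 10 male mice, all 12 weeks old, of the strain given as C57/BL6 in the sample labels and as C57/B6J in the protocol. The treated group, 5 mice, was given 20 µg/kg of IL-1β, an inflammatory cytokine, the untreated group of 5 was given saline, and livers were taken after 4 h. The same liver RNA of each mouse was made into poly-A selected, strand-specific libraries for both an Illumina HiSeq and an Ion Torrent Proton sequencer. Reads were aligned with GSNAP, with STAR, or with STAR followed by Bowtie2 for what STAR had left unmapped (STAR + Bowtie2), so there were 6 tables of 10 libraries. Illumina libraries held 10568530 to 12008799 gene-level counts and Ion Torrent libraries 12199528 to 16439683, here called reads. Whole liver was sequenced, so fewer cells of a type and less RNA per cell cannot be told apart in any value below. The p-values measure the spread between 5 mice per group.

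The untreated mouse UNT_9584 stood apart. The deviations of its Illumina and Ion Torrent libraries from their group correlated at 0.199 to 0.249 over 10543 to 11254 genes, against 0.562 to 0.728 in the other 9 mice. It was also the lowest of the 10 libraries for many of the 80 tested ribosomal protein genes, 33, 44 and 45 of them on Illumina (aligners in the order above) and 41, 34 and 22 on Ion Torrent. On Illumina it was also the highest for 10, 12 and 9 genes, and with Ion Torrent STAR + Bowtie2 UNT_9574 was the lowest for as many genes, 22. Counts of calls, medians and the summed shares with STAR are given with and without it. Single calls lost without it are named for part of the genes.

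A ribosome reads mRNA and joins amino acids, and its proteins are made in matched amounts in nearly every cell. Their mRNAs are abundant, short and stable, and most begin with a C followed by a run of pyrimidines, the terminal oligopyrimidine (TOP) element, through which the mTOR pathway sets how well they are translated. Ribosomal protein mRNAs have also been copied back into the genome many times as intronless processed pseudogenes, so a read from the mRNA can match a pseudogene as well as its own gene.

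Most ribosomal protein genes had slightly higher values in treated than in untreated livers, and few of them passed the test. Rpl7l1, Rpl3, Rpl13a, Rps15a, Rps9 and Rps4y2 rose in all 6 tables, with median log2 fold changes of 0.59, 0.53, 0.40, 0.36, 0.34 and 0.66. A further 7 genes rose in 4 or 5 tables: Rpl18, Rps19, Rps16, Rpl12, Rps13, Rpl10 and Rpl10a, with medians of 0.44, 0.32, 0.34, 0.32, 0.30, 0.30 and 0.29 (Rps13 and Rpl10a were named after their values were seen). In all, 27 of the 80 tested genes rose in at least 1 table, 1 gene fell (Rpl35a, in the 3 Illumina tables), and 52 were called in none. None was called in opposite directions. The shares of all genes called in at least 1, in 4 or 5 or in all 6 tables are not given here. These counts over tables therefore have no background beside them. The test was edgeR's quasi-likelihood test on the counts of a table after TMM normalization, a call needs a Benjamini-Hochberg adjusted p below 0.05 over all tested genes, and a positive fold change means more with IL-1β.

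Read against all genes, the number of calls was not large. In the Illumina tables, 17 ribosomal protein genes rose and 1 fell with GSNAP, where 23.7% of all tested genes rose and 23.9% fell. With STAR, 15 rose and 1 fell, beside 22.7% and 22.9% of all genes. With STAR + Bowtie2, 14 rose and 1 fell, beside 22.9% and 24.4%. In the Ion Torrent tables none fell, and 16 rose with GSNAP (all genes: 22.5% rose and 23.9% fell), 15 with STAR (20.3% and 21.8%) and 13 with STAR + Bowtie2 (22.8% and 24.0%). The share of ribosomal protein genes called higher was therefore near or below that of all genes in each table, and at most 1 gene of 80 was called lower, beside 21.8% to 24.4% of all genes.

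The fold changes themselves leaned to one side. On Illumina the median over the 80 genes was 0.25 for GSNAP and 0.17 for either STAR table, and 66, 68 and 68 of the genes had a positive value. Ion Torrent medians were 0.19, 0.17 and 0.13, with 77, 78 and 74 positive values. The median of all tested genes lay between -0.014 and 0.00 in these fits. A positive value in all 6 tables was found for 63 genes and a negative one for 0. The share of all genes with the same sign in all 6 tables is not given here. By subunit, with STAR the medians were 0.16 for the 47 large and 0.19 for the 33 small subunit genes on Illumina, where 6 and 9 of them rose, and 0.15 and 0.18 on Ion Torrent, where 7 and 8 rose. The subunits were not tested against each other.

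**Figure D1:**
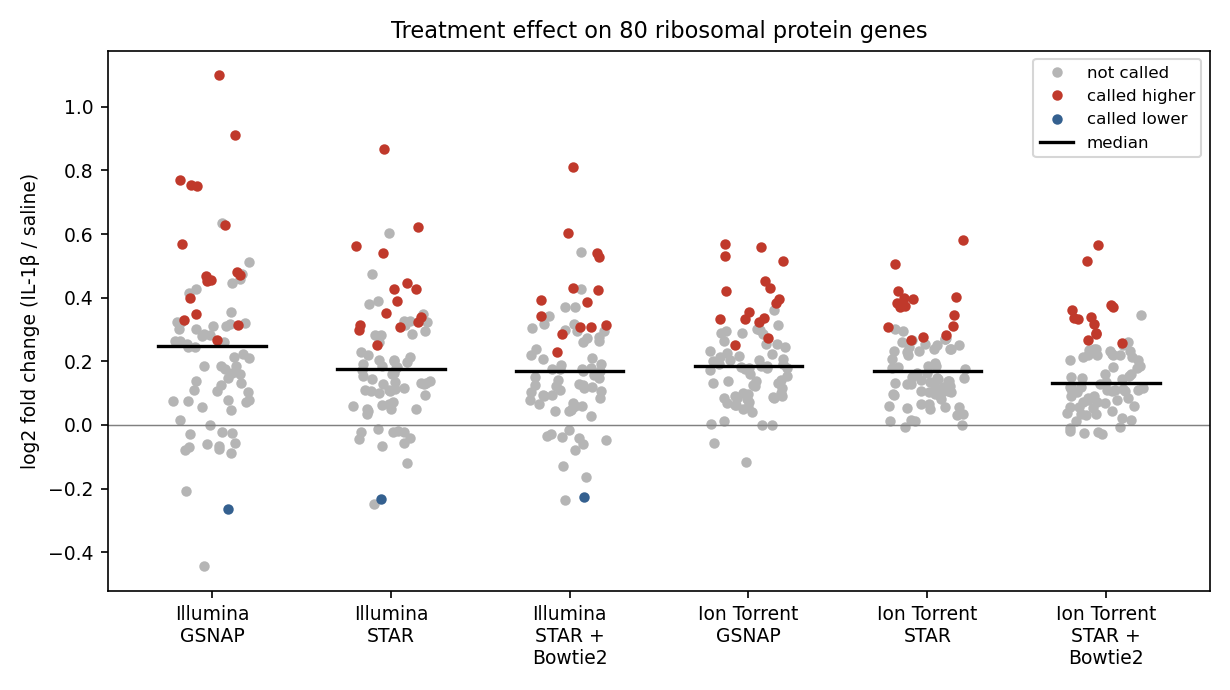
Log2 fold change (IL-1β over saline, vertical axis) of the 80 tested ribosomal protein genes in each of the 6 tables (horizontal axis), 1 point per gene, red where called higher, blue where called lower and grey where not called, with a black line at the median. Most points lie above 0 and the medians sit between 0.13 and 0.25, while the blue points (Rpl35a) occur in the 3 Illumina tables.

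The lean depended on the scaling. TMM factors averaged 0.957 to 0.967 in treated and 1.035 to 1.046 in untreated libraries. With library totals alone, the median of all tested genes became -0.092 to -0.114, and that of the ribosomal protein genes became 0.12, 0.046 and 0.068 (Illumina) and 0.079, 0.053 and 0.036 (Ion Torrent). Relative to all genes the ribosomal protein genes were thus higher under both scalings, but by totals 9 rose and 2 fell with Illumina GSNAP, 2 rose and 3 fell with STAR (Rpl3 and Rpl7l1 against Rpl17, Rpl35a and Rps27l), and 3 rose and 3 fell with STAR + Bowtie2. On Ion Torrent 5 rose and 0 fell with each aligner, and Rpl3, Rpl7l1 and Rpl13a were among the 5 each time. The shares of all genes called by library totals are not given here, so these counts have no background beside them.

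The study's own test gave another split. A two-sided Mann-Whitney test of the counts as deposited, without division by the totals, called 4 ribosomal protein genes higher and 8 lower with Illumina GSNAP, beside 14.7% and 26.4% of all genes. With STAR it called 2 higher and 14 lower (all genes: 14.3% and 25.4%), and with STAR + Bowtie2 2 higher and 9 lower (14.8% and 25.2%). On Ion Torrent it called 0 higher and 0 lower with GSNAP (13.2% and 25.7%), 2 and 0 with STAR (12.3% and 24.9%) and 5 and 0 with STAR + Bowtie2 (13.7% and 25.1%). For Ion Torrent GSNAP the rank test had 3 ribosomal protein genes at an unadjusted p below 0.05, and edgeR 25. Rpl3 was called higher by the rank test in 5 of the 6 tables and Rpl7l1 in 4. Rpl7, Rpl21, Rpl22, Rpl35a and Rps27l were called lower by it in each Illumina table. Each treated library had a smaller total than each untreated library in every table. With Illumina STAR the totals were 10568530 to 10655860 in treated and 10887640 to 11046256 in untreated mice. Counts that are not divided by the totals carry this difference, and its part in the rank test calls was not tested.

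Without mouse UNT_9584, 16, 10 and 8 genes rose on Illumina and 7, 9 and 11 rose on Ion Torrent, and none fell. The medians were then 0.18, 0.14 and 0.12 on Illumina and 0.14, 0.15 and 0.13 on Ion Torrent. Over all 10 mice left out in turn, the number that rose ranged over 10 to 27, 5 to 26 and 7 to 27 on Illumina and 7 to 18, 8 to 23 and 10 to 15 on Ion Torrent, so the counts are not precise. The shares of all genes called in the fits with a mouse left out are not given here. Calls that held whichever mouse was left out numbered 10, 5, 6, 7, 7 and 8 of 18, 16, 15, 16, 15 and 13. Rpl7l1, Rpl3, Rpl13a and Rps15a were among them in every table. Leaving out UNT_9584 ended calls of Rps19, Rps16, Rpl12, Rps13, Rpl10 and Rpl10a in part of their tables, and none of Rpl18. No Rps13 call held whichever mouse was left out.

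The summed share of the 83 genes in a library did not separate the groups. With Illumina STAR it was 1.54%, 1.43%, 1.45%, 1.38% and 1.499% in the treated mice (ILB_9577, ILB_9578, ILB_9579, ILB_9582 and ILB_9583) and 1.42%, 1.38%, 1.57%, 1.49% and 1.19% in the untreated mice (UNT_9574, UNT_9575, UNT_9576, UNT_9580 and UNT_9584), with means of 1.46 ± 0.0612 and 1.41 ± 0.143 (SD, n = 5). With Ion Torrent STAR it was 1.57%, 1.80%, 1.63%, 1.51% and 1.62% against 1.57%, 1.48%, 1.63%, 1.604% and 1.40%, with means of 1.63 ± 0.108 and 1.54 ± 0.0939. The ranges overlapped on both platforms, and UNT_9584 was the lowest untreated mouse on both. Without UNT_9584 the untreated mean was 1.4635% with Illumina STAR, where the treated mean was 1.4624%. With Ion Torrent STAR it was 1.5694%, against 1.6256% in the treated mice.

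Values per mouse are given for the STAR tables as CPM (the count scaled to a library of 1000000, by TMM-scaled totals), for the treated mice in the order ILB_9577, ILB_9578, ILB_9579, ILB_9582 and ILB_9583 and for the untreated mice in the order UNT_9574, UNT_9575, UNT_9576, UNT_9580 and UNT_9584. Positions are on NCBIM37 (mm9). Fold changes are on the log2 scale with their standard errors, and their adjusted p-values are those of edgeR.

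Rpl7l1 (chr17:46910856-46919605, minus strand), a relative of Rpl7 that acts in building the 60S subunit, varied least over the tables among the 13 genes called in at least 4. On Illumina it had 102, 114, 109, 107 and 108 CPM in treated and 67.2, 85.1, 81.2, 54.8 and 62.8 in untreated mice. On Ion Torrent it had 125, 137, 113, 121 and 123 against 76.4, 103, 87.6, 66.3 and 80.8. Every treated mouse lay above every untreated mouse on both platforms. The fold change was 0.62 ± 0.12 (adjusted p = 0.00043) on Illumina and 0.58 ± 0.11 (adjusted p = 0.00057) on Ion Torrent, and over the 6 tables it ranged from 0.56 to 0.63. Its partner Rpl7, a core 60S protein, had fold changes of -0.042 and 0.10 that did not pass the edgeR test. The rank test called Rpl7 lower in each Illumina table.

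Rpl3 (chr15:79908211-79913836, minus strand) encodes a protein of the peptidyl transferase region of the 60S subunit. On Illumina it had 356, 332, 362, 323 and 341 CPM in treated and 237, 242, 271, 239 and 190 in untreated mice. On Ion Torrent the values were 331, 367, 356, 328 and 323 against 263, 258, 278, 271 and 228. The groups did not overlap in any of the 6 tables. Its fold change was 0.54 ± 0.10 (adjusted p = 0.00044) on Illumina and 0.39 ± 0.093 (adjusted p = 0.0025) on Ion Torrent. It kept its call with every mouse left out, with DESeq2, with limma-voom and without TMM in all 6 tables, and the rank test missed it with Ion Torrent GSNAP.

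Rpl13a (chr7:52380928-52391787, minus strand) encodes a 60S protein that is also known to leave the ribosome and repress some inflammatory mRNAs. It had 347, 334, 309, 318 and 380 CPM in treated and 257, 233, 286, 284 and 180 in untreated mice on Illumina. The Ion Torrent values were 431, 477, 413, 391 and 470 against 328, 328, 361, 339 and 331. Treated mice lay above untreated mice without overlap on both platforms. The fold changes were 0.44 ± 0.12 (adjusted p = 0.0080) and 0.37 ± 0.094 (adjusted p = 0.0039). By library totals the Illumina STAR and STAR + Bowtie2 calls were lost (adjusted p = 0.065 and 0.053).

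Rps15a (chr7:125247892-125259700, minus strand) encodes a protein of the 40S subunit. Its Illumina values were 137, 155, 141, 118 and 138 against 108, 106, 114, 110 and 115 CPM, and its Ion Torrent values 175, 229, 172, 145 and 167 against 136, 118, 128, 138 and 143. Only a narrow gap separated the groups, and in 2 of the 6 tables they overlapped. The fold changes were 0.32 ± 0.089 (adjusted p = 0.0088) and 0.42 ± 0.12 (adjusted p = 0.0075), and by library totals it kept its call with Ion Torrent STAR and lost it in the other 5 tables, where adjusted p was 0.053 to 0.096.

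Rps9 (chr7:3655595-3658503, plus strand), a 40S protein involved in keeping decoding accurate, had 244, 233, 240, 243 and 270 CPM in treated and 185, 167, 215, 227 and 119 in untreated mice on Illumina. In the Ion Torrent libraries it had 273, 318, 294, 271 and 316 against 233, 212, 271, 266 and 230. The lowest treated and highest untreated mouse differed by less than 1 CPM on Ion Torrent. The fold changes were 0.43 ± 0.14 (adjusted p = 0.022) and 0.28 ± 0.10 (adjusted p = 0.033). Leaving out UNT_9575 or ILB_9583 ended the Illumina STAR call (highest adjusted p = 0.054), and leaving out UNT_9574, UNT_9575, ILB_9579, ILB_9583 or UNT_9584 ended the Ion Torrent STAR call (highest adjusted p = 0.095). Over the 6 tables the call was lost in 2 to 8 of the 10 fits with a mouse left out, and by library totals it was lost in all 6 (adjusted p = 0.12 to 0.22).

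Rpl18 (chr7:52970827-52976205, plus strand), another 60S protein, had 178, 141, 159, 162 and 199 CPM in treated and 109, 101, 140, 147 and 71.8 in untreated mice on Illumina. Ion Torrent gave 307, 327, 376, 325 and 385 against 250, 255, 291, 295 and 264. The groups overlapped on Illumina and were apart on Ion Torrent. Its fold changes of 0.56 ± 0.16 (adjusted p = 0.011) and 0.34 ± 0.10 (adjusted p = 0.010) held with every mouse left out, and it missed the test with Ion Torrent GSNAP (adjusted p = 0.056). By library totals it was called with Illumina GSNAP and Illumina STAR + Bowtie2 alone, and both STAR calls were lost (adjusted p = 0.052 on Illumina and 0.057 on Ion Torrent).

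Rps4y2 (chr6:148303178-148304120, plus strand) is a scarce gene of the Rps4 family. On Illumina it had 12.4, 8.18, 7.74, 12.7 and 14.2 CPM in treated and 4.83, 5.45, 8.75, 9.42 and 1.77 in untreated mice. On Ion Torrent it had 18.5, 19.1, 25.9, 31.2 and 24.1 against 12.9, 14.5, 21.4, 20.5 and 14.4. The groups overlapped in all 6 tables. The fold changes of 0.87 ± 0.32 (adjusted p = 0.036) and 0.51 ± 0.17 (adjusted p = 0.026) were ended by leaving out UNT_9574, UNT_9575, ILB_9577, ILB_9582 or ILB_9583 on Illumina (highest adjusted p = 0.088) and UNT_9574, UNT_9575, ILB_9579, ILB_9582 or UNT_9584 on Ion Torrent (highest adjusted p = 0.078), and over the 6 tables in 1 to 6 of the 10 such fits. Both STAR calls were also lost by library totals (adjusted p = 0.080 and 0.065), where the call remained with Illumina GSNAP and Ion Torrent STAR + Bowtie2, and with limma-voom (adjusted p = 0.054 and 0.051). Rps4x, the main gene of that family, had -0.023 and 0.067 and was not called by edgeR. The rank test called Rps4x lower with Illumina STAR and Illumina STAR + Bowtie2.

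Rpl35a (chr16:33056539-33060275, plus strand), a 60S protein, was the exception in direction. It was named after its values were seen. On Illumina it had 125, 121, 132, 118 and 122 CPM in treated and 131, 140, 143, 149 and 165 in untreated mice, so 1 treated mouse reached into the untreated range. On Ion Torrent it had 65.6, 92.1, 81.1, 68.4 and 76.5 against 78.4, 70.8, 71.6, 86.2 and 73.6, and the groups overlapped fully. It fell by 0.23 ± 0.087 on the log2 scale on Illumina (adjusted p = 0.041) and had 0.011 ± 0.11 on Ion Torrent (adjusted p = 0.99). Leaving out any of 8 mice, all but UNT_9574 and ILB_9579, ended the Illumina STAR call (highest adjusted p = 0.082). The difference between the platforms did not pass the test of the platform-by-treatment term (0.25 ± 0.099, adjusted p = 0.70 with STAR).

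**Figure D2:**
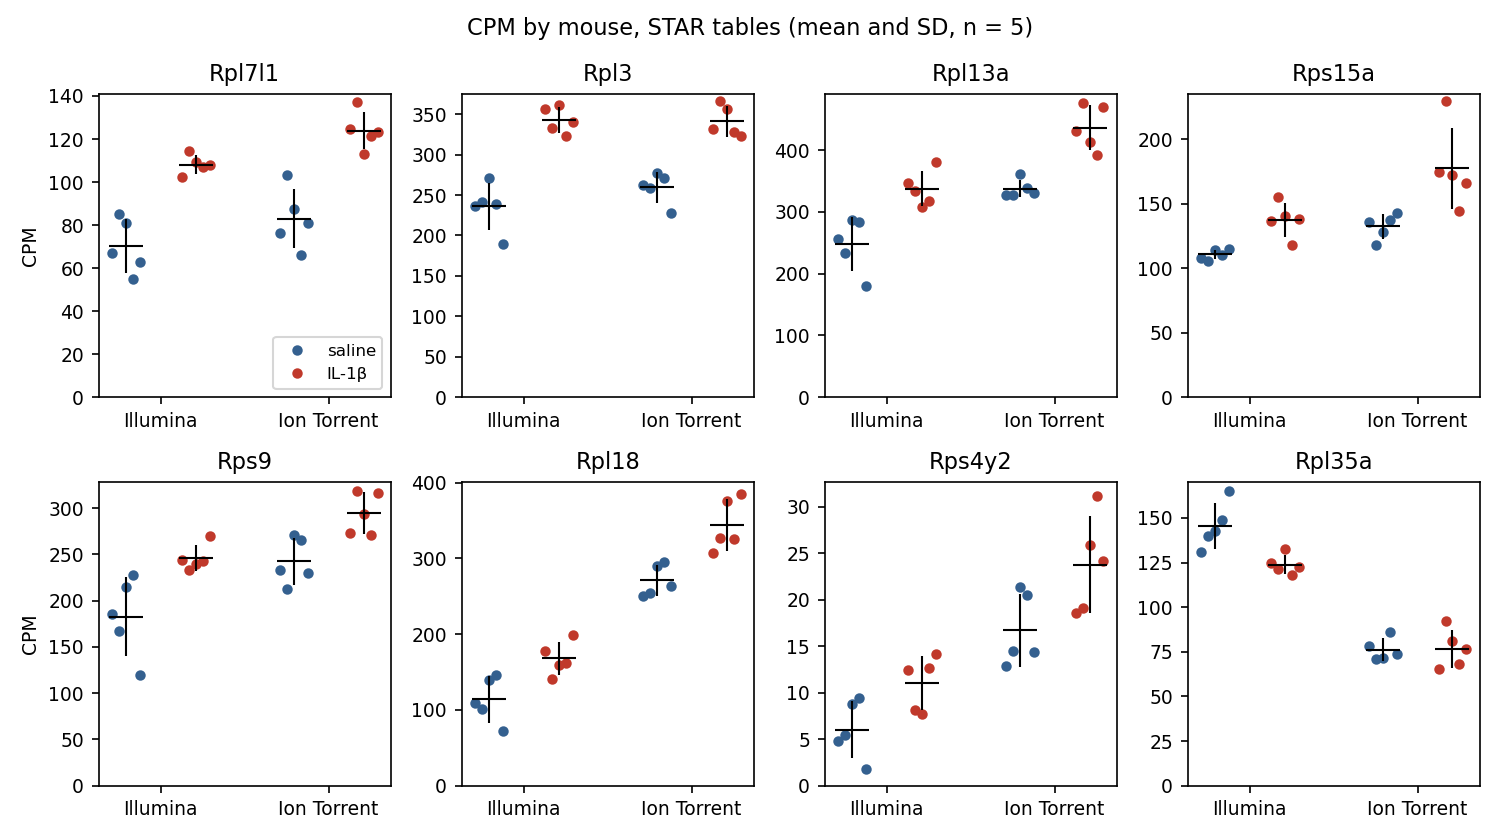
CPM (vertical axes, starting at 0) of 8 ribosomal protein genes in the STAR tables of both platforms (horizontal axes), 1 point per mouse, saline in blue and IL-1β in red, with the mean and SD of 5 mice in black. Rpl7l1, Rpl3 and Rpl13a show no overlap between groups on either platform, while Rps4y2 overlaps on both and Rpl35a has 124 ± 5.3 CPM with IL-1β against 145 ± 13 with saline on Illumina.

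The stalk of the 60S subunit, which binds the translation factors, is formed by Rplp0, Rplp1 and Rplp2. Rplp0 rose in the 3 Illumina tables (0.43 ± 0.14, adjusted p = 0.022 with STAR) and did not pass on Ion Torrent (0.25 ± 0.10, adjusted p = 0.064). Leaving out ILB_9577 or ILB_9583 ended its call in each of them (UNT_9575 also with GSNAP, highest adjusted p = 0.071). In the Illumina STAR table Rplp1 had 271, 157, 174, 194 and 285 CPM in treated and 152, 118, 238, 219 and 49.8 in untreated mice. The untreated mice alone spread from 49.8 to 238, and the fold change of 0.47 ± 0.31 was not called in any table. Rplp2 was called in the Ion Torrent STAR table alone (0.40 ± 0.14, adjusted p = 0.033), a call that ended without UNT_9574, UNT_9575, ILB_9579 or ILB_9583. Rpsa, the 40S protein that doubles as a laminin receptor, rose in 3 tables (0.34 ± 0.12, adjusted p = 0.032 with Illumina STAR and 0.27 ± 0.11, adjusted p = 0.0498 with Ion Torrent STAR), and leaving out UNT_9574, UNT_9575, ILB_9577, ILB_9579, ILB_9583 or UNT_9584 ended either call.

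Apart from Rpl7l1 and Rps4y2, the paralogs of standard ribosomal proteins were not called by edgeR. Rpl22l1, the relative of Rpl22, had 15.3 ± 2.3 CPM with IL-1β and 15.9 ± 2.6 with saline on Illumina (SD, n = 5). Neither it nor Rpl22 was called by edgeR in any table. Rps27l, a p53-inducible relative of Rps27, had 98.9 ± 8.5 against 117 ± 14 on Illumina (-0.25 ± 0.099, adjusted p = 0.055) and 66.8 ± 16 against 61.4 ± 6.2 on Ion Torrent (0.12 ± 0.14). Rps27 itself had 0.11 ± 0.081 and 0.30 ± 0.17, neither of them called. Rpl39 was not called by edgeR in any table, with -0.044 and 0.16. The rank test called Rpl22 and Rps27l lower in each Illumina table, and Rpl39 lower with Illumina GSNAP and Illumina STAR. Rpl3l, Rpl10l and Rpl39l, known from muscle and testis, stayed at or below 5 reads in every library, so a difference in them was not detectable at this depth.

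Other genes of translation were called more often, which was not tested as a difference. Of 46 such genes, which included translation factors, poly(A)-binding proteins and other TOP mRNAs, 24, 23 and 23 rose on Illumina while 3, 4 and 4 fell. On Ion Torrent 18, 19 and 18 rose while 3 fell with each aligner. Their median log2 fold change was 0.28 with STAR on Illumina and 0.21 on Ion Torrent. Of all tested genes, 20.3% to 23.7% rose and 21.8% to 24.4% fell in the same tables. Of the 46 genes, the same 17 were called higher in every table and the same 2 were called lower in every table. The initiation factors Eif3d (1.01 ± 0.084 on Illumina and 0.83 ± 0.095 on Ion Torrent), Eif4a1 (0.90 ± 0.091 and 0.90 ± 0.095) and Eif3a (0.76 ± 0.093 and 0.76 ± 0.12) and the poly(A)-binding protein Pabpc4 (0.73 ± 0.090 and 0.70 ± 0.10) were among them. The 2 that fell were Rps6ka1, a kinase of ribosomal protein S6 (-1.20 ± 0.16 and -1.52 ± 0.13), and the initiation factor Eif4b (-0.25 ± 0.095 and -0.27 ± 0.10). The elongation factors Eef1a1 and Eef2, both TOP mRNAs, were called in none of the tables. Their median log2 fold changes were -0.085 and 0.11. The share of all genes called in every table is not given here, so the 17 and the 2 have no background beside them.

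Of 76 mitochondrial ribosomal protein genes, 6 rose with each aligner on Illumina while 17, 12 and 16 fell. On Ion Torrent 7, 7 and 6 rose while 12, 13 and 13 fell. Their median log2 fold change lay between -0.041 and 0.00094 in the 6 tables. Beside them, 20.3% to 23.7% of all tested genes rose and 21.8% to 24.4% fell, and no difference from all genes was tested.

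The marker lists of blood and liver cells differed in how many genes were called. Beside these lists, 20.3% to 23.7% of all tested genes rose and 21.8% to 24.4% fell, and no list was tested against those shares. Of 10 neutrophil markers 8 were tested, and all 8 rose in every table, with a summed level of 52.5 to 162 CPM in treated and 2.30 to 6.91 in untreated libraries. Of 8 hepatocyte markers 1 rose and 4 (Illumina) or 5 (Ion Torrent) fell, with sums of 72522 to 100240 against 97410 to 140700. Of 10 Kupffer cell and macrophage markers 1 rose and 3 or 4 fell (sums 101 to 273 against 158 to 321), of 5 endothelial markers 1 rose and 2 or 3 fell (60.7 to 123 against 102 to 167), and of 5 erythroid markers 0 rose and 1 fell. Of 10 lymphocyte markers 6 were tested, and 0 rose and 2 to 4 fell (5.20 to 13.3 against 7.34 to 16.1). No marker in these lists was at 0 in every library of a table, and their part in the fold changes of ribosomal protein genes was not tested.

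The start of a transcript is where a TOP element lies, so the starts of the genes that rose in every table are shown for the 4 of them that have a RefSeq start site on GRCm38.p6. Each runs from 10 bases before to 20 bases from the start, on the gene's own strand, with the longest run of C and T in the window in capitals. They are chr7:45128726-45128755 (minus), chr7:118116128-118116157 (minus), chr7:3704031-3704060 (plus) and chr17:46782637-46782666 (minus).
Rpl13a: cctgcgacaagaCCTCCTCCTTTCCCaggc
Rps15a: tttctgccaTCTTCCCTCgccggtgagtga
Rps9: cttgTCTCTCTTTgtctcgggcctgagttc
Rpl7l1: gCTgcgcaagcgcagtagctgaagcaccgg
The runs are 14 bases in Rpl13a, 9 in Rps15a, 9 in Rps9 and 2 in Rpl7l1. The run begins 2 bases after the annotated start in Rpl13a, 1 base before it in Rps15a and 6 bases before it in Rps9, and Rpl7l1 has no run longer than 2.

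Over all 61 ribosomal protein genes with RefSeq start sites (73 windows), 24 windows (32.9%) held a run of at least 7 pyrimidines within the stretch from 5 bases before to 10 bases after the start, against 7.45% of 32851 windows of all genes. In the 300 bases around the start (250 before and 50 after, both strands searched), the motif CTTTCC was found in 49.3% of the windows against 26.6% of all, CTCTTTCC, which contains it, in 17.8% against 3.12%, and CCGGAAG, the core of an ETS-type site, in 34.2% against 8.86%. A match is a string of letters and not a shown binding site.

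The reads counted at ribosomal protein genes differed more between aligners than between treatments. With STAR the 83 genes held 1.44 ± 0.108% of an Illumina library and 1.58 ± 0.106% of an Ion Torrent library (SD, n = 10). With STAR + Bowtie2 they held 1.34 ± 0.105% and 1.33 ± 0.0721%, and with GSNAP 0.445 ± 0.0386% and 0.673 ± 0.0427%. The 3 tables of a platform hold the same libraries but were re-sampled separately, so these levels are set side by side with no test.

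For each gene the ratio of its GSNAP share to its STAR share was taken within each library and averaged on the log2 scale over 10 mice, with 1 read added. Over the 79 genes detected in both Illumina tables the median was -2.43, and 61 of them lay below -1 and 31 below -3. On Ion Torrent the median over 80 genes was -1.48, with 51 below -1 and 15 below -3. Of all genes detected with both aligners (12975 and 12851), 1.78% on Illumina and 0.965% on Ion Torrent lay below -1, and the median was 0.032 and 0.038. Of the mitochondrial ribosomal protein genes, 3 of 75 and 1 of 76 lay below -1. STAR + Bowtie2 against STAR had medians of -0.11 and -0.26 over 80 genes, with none beyond 1 in either direction.

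Rps12, a 40S protein, was the extreme. GSNAP gave it 0 to 6 reads in the 10 Illumina libraries (mean 1.8) and STAR 1192 to 2158 (mean 1826), so with GSNAP it did not count as detected. Rps27, a 40S zinc-finger protein, followed with 2 to 8 against 1285 to 1555 reads, then Rpl17 with 15 to 32 against 1870 to 2518, Rps29 with 6 to 20 against 542 to 1562 and Rps23 with 16 to 37 against 1456 to 1897. On Ion Torrent the lowest log2 ratios were those of Rpl23a (-5.30 ± 0.41), Rpl17 (-5.14 ± 0.18), Rps27 (-4.34 ± 0.28), Rpl28 (-4.23 ± 0.15) and Rps12 (-4.23 ± 0.18, SD over 10 mice). At the other end, Rps3, a 40S protein at the mRNA entry, had 2694 to 3416 GSNAP and 2445 to 3185 STAR reads on Illumina and a log2 ratio of -0.0027 ± 0.025. Rpl8 and Rps4y2 were also within 0.11 of 0 on Illumina, and Rps27l, Rps4y2, Rpl22 and Rpl22l1 on Ion Torrent.

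The genes differ in how much of their sequence is unique. For each gene the transcript with the longest coding sequence was taken, up to 3 times the median coding length of its transcripts. Each transcript was cut into windows of 100 bases, and the share of windows that occurs exactly at another place in the genome was counted. That share had a median of 47.8% over the tested genes and reached 99.6% in Rps27 and 97.9% in Rps12, while 6 genes, Rps3 among them, had 0. Spearman's rho between this share and the log2 GSNAP to STAR ratio was -0.82 on Illumina (79 genes) and -0.82 on Ion Torrent (80 genes). It was -0.49 and -0.54 against the number of copies and 0.012 and -0.069 against the mean count. These are correlations across genes, which share libraries, aligner and annotation and are not independent replicates. The 12 genes with under 10% of windows elsewhere had a median log2 ratio of -0.076 on Illumina and -0.096 on Ion Torrent, the 29 with 10 to 50% had -1.90 and -1.001, and the 39 with at least 50% had -3.83 and -2.59. Some transcripts taken were long: Rps20 had 3706 bases with 5.93% of windows elsewhere, and Rpl13a had 1272 coding bases and 0 copies. How these values change with another transcript was not tested.

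**Figure D3:**
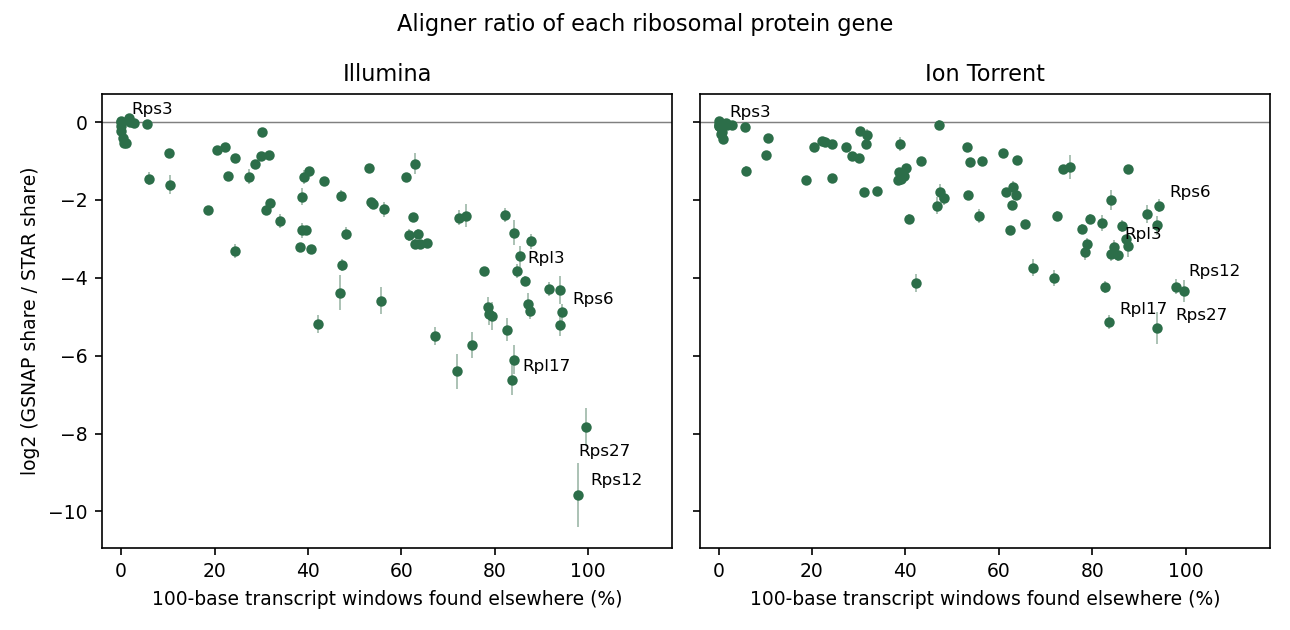
Mean log2 ratio of the GSNAP share to the STAR share of each ribosomal protein gene (vertical axis, bars show the SD over 10 mice) against the percentage of its 100-base transcript windows found exactly elsewhere in the genome (horizontal axis), Illumina at left and Ion Torrent at right. Rps3 sits at 0 with no window elsewhere, and the ratios fall to below -9 (Rps12, Illumina) as the share of windows elsewhere nears 100%.

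The mRNA across an exon junction shows what an aligner has to choose between. Each line gives 60 bases on the gene's strand, 30 from each of 2 neighboring exons, with the bases next to the junction in capitals, and below it the same stretch in a copy. In the genome the parts of the member lie at chr10:23505708-23505737 and chr10:23505454-23505483 for Rps12 (minus strand, exons 4 and 5 of 6), chr3:90017115-90017144 and chr3:90016937-90016966 for Rps27 (minus, exons 2 and 3 of 4), chr15:79910120-79910149 and chr15:79909209-79909238 for Rpl3 (minus, exons 6 and 7 of 10), chr4:86502050-86502079 and chr4:86501888-86501917 for Rps6 (minus, exons 3 and 4 of 5) and chr7:106630771-106630800 and chr7:106630272-106630301 for Rps3 (minus, exons 3 and 4 of 7). The copies have the stretch in 1 piece, at chr19:59397065-59397124 (plus) in Rps12-ps3, chr9:114891681-114891740 (minus) in Gm9846, chrX:12780517-12780576 (plus) in Rpl3-ps1 and chr2:75029501-75029560 (minus) in Gm13654, all on NCBIM37.
Rps12: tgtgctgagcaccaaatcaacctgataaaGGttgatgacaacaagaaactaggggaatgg
Rps12-ps3: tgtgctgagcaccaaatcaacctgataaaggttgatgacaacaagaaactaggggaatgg
Rps27: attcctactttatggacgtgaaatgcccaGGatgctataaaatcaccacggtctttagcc
Gm9846: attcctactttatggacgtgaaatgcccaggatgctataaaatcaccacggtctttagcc
Rpl3: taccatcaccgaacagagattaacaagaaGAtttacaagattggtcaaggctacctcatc
Rpl3-ps1: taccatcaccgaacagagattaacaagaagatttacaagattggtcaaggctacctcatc
Rps6: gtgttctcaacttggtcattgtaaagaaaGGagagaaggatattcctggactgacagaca
Gm13654: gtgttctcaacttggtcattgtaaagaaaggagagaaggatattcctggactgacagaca
Rps3: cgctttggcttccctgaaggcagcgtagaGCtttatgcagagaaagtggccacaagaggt
Each copy shown differs from its member at 0 of the 60 bases. The spliced stretch occurs as 1 unbroken piece at 5 places in the genome for Rps12, 2 for Rps27, 5 for Rpl3, 1 for Rps6 and 0 for Rps3. In the Illumina data GSNAP gave Gm9846 a mean of 966.7 reads and STAR 7.4, Rpl3-ps1 1979.9 and 56.2, Gm13654 2327.5 and 21.5, and Rps12-ps3 44.5 and 0.1. All 4 copies had more reads with GSNAP than with STAR, and the 4 members had fewer. Each copy was picked for the highest Illumina GSNAP mean among the copies considered. That choice favored a GSNAP value above the STAR value, so the direction at these copies is an illustration and not a test.

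Copies were numerous. Annotated non-coding genes whose transcript matched the coding sequence of a member (at least 80% identity over at least 50% of its length) numbered 788, of which 725 had a single exon. The median was 7 copies per gene and the largest number was 52. A further 197 rows annotated as protein-coding matched as well, Rps12-ps3 and Gm9846 among them. With GSNAP the 788 copies held 0.334 ± 0.0252% of an Illumina and 0.270 ± 0.0196% of an Ion Torrent library. With STAR they held 0.0269 ± 0.0020% and 0.0066 ± 0.00036%, and with STAR + Bowtie2 0.0393 ± 0.0034% and 0.167 ± 0.0225%. Detected copies numbered 149, 142 and 216 on Illumina (GSNAP first, STAR next, STAR + Bowtie2 last) and 412, 43 and 323 on Ion Torrent.

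The aligners differed also with the copies added. Members, copies and protein-coding matches together held 0.923 ± 0.0733% with Illumina GSNAP against 1.48 ± 0.109% with STAR and 1.40 ± 0.107% with STAR + Bowtie2, and 1.08 ± 0.0708% against 1.6005 ± 0.108% and 1.59 ± 0.102% on Ion Torrent.

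**Figure D4:**
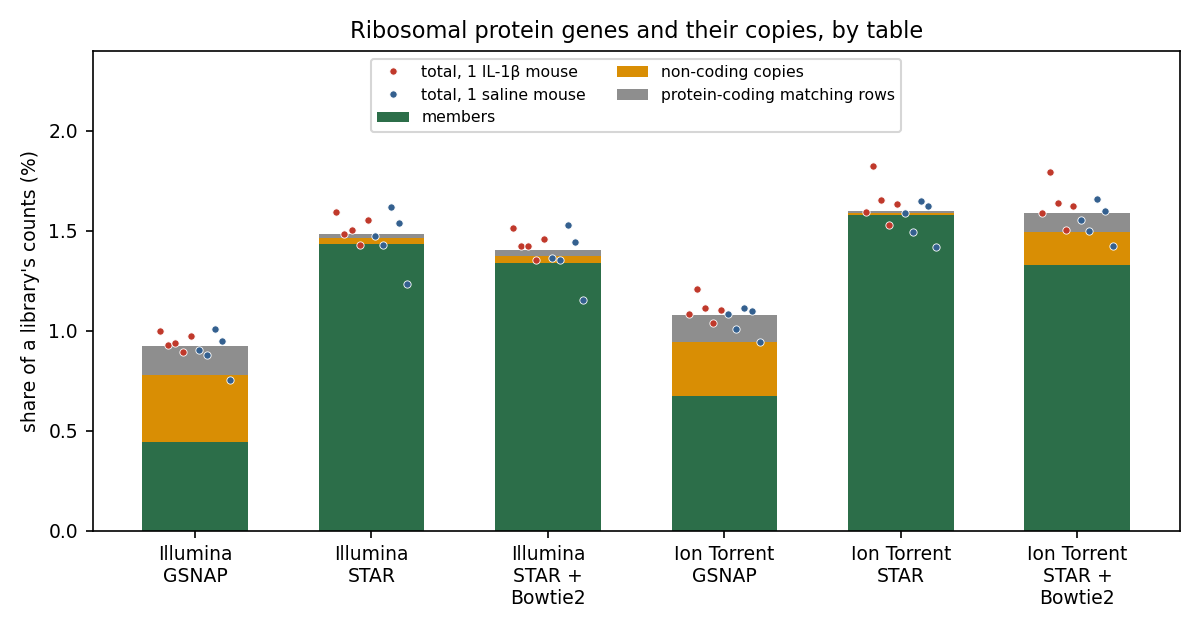
Mean share of a library's counts (percent, vertical axis, bars starting at 0) held by the ribosomal protein genes (green), their non-coding copies (orange) and protein-coding matching rows (gray) in the 6 tables, with the total of each of 10 mice as points. The green part is 1.44% and 1.58% with STAR and 0.445% and 0.673% with GSNAP, and the GSNAP bars are lower also with the copies added.

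For a single gene the GSNAP reads at the gene and its copies can be set against the STAR reads at both. Copies are here the non-coding ones and the single-exon protein-coding rows that matched at 90% identity over 80% of the coding sequence or more, and they are the copies added to a gene below. Where under 50% of windows occurred elsewhere (41 genes), the GSNAP share was a median of 80.5% of the STAR share on Illumina and 85.7% on Ion Torrent. Where at least 50% did and most of those windows had 1 other place (12 genes), the medians were 72.5% and 82.3%, with 63.1% and 51.0% at the copies. Where most had several other places (27 genes), the medians were 42.4% and 39.4%. For some genes the GSNAP share was above the STAR share. In the group of 41, single genes ranged from 16.5% to 114.6% on Illumina and from 27.2% to 371% on Ion Torrent. The highest was Rpl35 on Ion Torrent, with 296.7% at its copies. Rps6, the S6 protein that is phosphorylated downstream of mTOR, had 3.22% at the gene and 94.7% at its copies with Illumina GSNAP, Rps27 0.383% and 64.5%, and Rps12 0.0919% and 3.57%. For Rps6 the share at the copies came close to the whole STAR share, while for Rps12 gene and copies together held 3.66% of it.

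**Figure D5:**
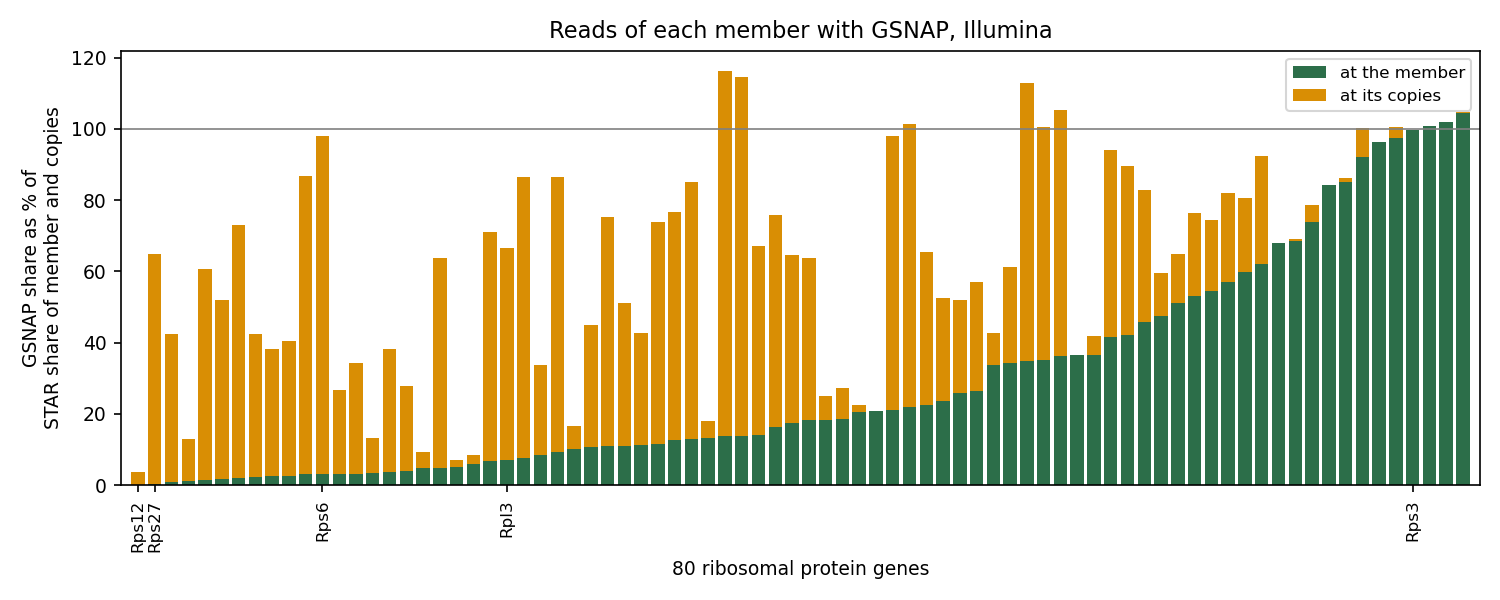
GSNAP share of each of 80 ribosomal protein genes in the Illumina data (green) and of its copies (orange) as a percentage of the STAR share of gene and copies (vertical axis), genes ordered by the green part and 5 of them labelled. Rps12 at the far left reaches 3.66% in all, Rps6 97.9% and Rps3, near the right edge, 99.8%.

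The treatment effect was tested at the copies as well. Named were the 10 non-coding copies with the highest mean counts on either platform, among them copies of Rpl18, Rps6, Rpl5, Rpl10a, Rpl14, Rpl19, Rpl3 and Rps16. Rpl3-ps1 (chrX:12779697-12780906) rose by 0.53 ± 0.093 (adjusted p = 0.00031) with Illumina GSNAP and 0.33 ± 0.086 (adjusted p = 0.0047) with Ion Torrent GSNAP, where Rpl3 had 0.75 and 0.53. Gm13436, a copy of Rpl18 (chr2:36663309-36663924), rose in all 6 tables, by 0.53 ± 0.14 with Illumina and 0.34 ± 0.091 with Ion Torrent GSNAP (adjusted p = 0.0068 and 0.0064). Rpl18 itself had 0.57 and 0.30 there. With STAR, Gm13436 had few reads, a mean of 54.6 on Illumina and 7.1 (4 to 12) on Ion Torrent (adjusted p = 0.023 and 0.037). Rpl18 had means of 1508.4 and 3801.1 reads in those tables. Gm13654, the copy of Rps6, had 0.0097 ± 0.085 and 0.17 ± 0.12, neither called. Of the 477 copies tested, 15, 5 and 6 rose on Illumina while 3 fell with each aligner. On Ion Torrent 22, 5 and 16 rose while 2, 1 and 1 fell. Of all tested genes, 20.3% to 23.7% rose and 21.8% to 24.4% fell in the 6 tables. Many of the 477 copies had few reads, as 149, 142 and 216 copies were detected on Illumina and 412, 43 and 323 on Ion Torrent. Whether the low number of calls reflects this was not tested.

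For some genes the fold change was larger with GSNAP than with STAR. Rpl12, a 60S protein of the stalk base, had 13.1, 10.3, 17.2, 9.33 and 14.0 CPM in treated and 4.99, 5.76, 5.83, 7.87 and 5.36 in untreated mice with Illumina GSNAP. The groups were apart, with a fold change of 1.10 ± 0.18 (adjusted p = 0.00017), where STAR gave 0.32 ± 0.11 (adjusted p = 0.025). Rpl10, a 60S protein that joins late in assembly, had 35.8, 30.7, 41.1, 30.7 and 40.7 against 19.2, 23.1, 20.0, 19.2 and 23.4 with GSNAP (0.77 ± 0.12, adjusted p = 7.6e-05) and 0.17 ± 0.086 with STAR (adjusted p = 0.12). With the reads of their copies added to both, the log2 ratio of the group means was 0.31 and 0.33 for Rpl12 with GSNAP and STAR, and 0.53 and 0.17 for Rpl10.

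Over all 80 genes the copies held a median of 65.7% of the reads of gene and copies with Illumina GSNAP and 2.62% with STAR. Adding them moved the median log2 ratio of group means from 0.25 to 0.18 with Illumina GSNAP, beside 0.17 with STAR, and the SD across genes from 0.26 to 0.20. On Ion Torrent GSNAP the median stayed at 0.19 and the SD went from 0.14 to 0.12.

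Whether the IL-1β effect differed between platforms was tested with edgeR, as a term for platform by treatment beside 1 term for each mouse. No ribosomal protein gene passed with any aligner, where 0.0642% (GSNAP), 0.00642% (STAR) and 0.077% (STAR + Bowtie2) of all genes did. At an unadjusted p below 0.05 there were 11, 10 and 8 of the 80 (13.8%, 12.5% and 10%), against 7.81%, 7.0% and 7.77% of all genes, and DESeq2 and limma-voom called 0 as well. The smallest adjusted p with GSNAP was that of Rpl12 (Ion Torrent minus Illumina -0.63 ± 0.16, adjusted p = 0.25), and with STAR that of Rps27l (0.36 ± 0.10, adjusted p = 0.65). Rpl12 passed when mouse UNT_9584 was left out (-0.68 ± 0.14, adjusted p = 0.024).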

How the data were processed

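The authors aligned the reads to mm9 with GSNAP 2015-12-31, STAR 2.5.1b or STAR followed by Bowtie2 2.2.9 (versions per the submitters' processing notes), removed rRNA and mitochondrial reads and, for each table, re-sampled all libraries to the smallest with PORT. They deposited gene-level counts on Ensembl gene models, whole numbers in 60 columns, all used. Whether an Illumina count is a read or a read pair is not stated in the tables.

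Genes that reached 5 reads in 5 or more libraries of any table were tested within each table by edgeR 4.0.16 (glmQLFit and glmQLFTest, TMM, Benjamini-Hochberg over 15578 genes). The platform-by-treatment term used both libraries of each mouse, with the mouse as a block. The same liver RNA pairs them, and deviations of a mouse's libraries correlated at 0.199 to 0.728. Alternatives were the Mann-Whitney test of the study's methods, DESeq2 1.42.0, limma-voom (limma 3.58.1), other scalings and filters, and each mouse left out. Scripts were tested on simulated counts. Other tools were R 4.3.3, Python 3.11.15, numpy 2.4.6, pandas 2.3.3, scipy 1.17.1 and matplotlib 3.10.9.

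Copies were found by BLAST of coding sequences against annotated transcripts on NCBIM37. Start windows and sequences there are from RefSeq on GRCm38.p6, in which 61 of the 83 genes had an entry, and sequences of 2 genes and values of some others are not reported here.

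The genes and lists were chosen with earlier results of these data known. Named are genes called in 1 direction in at least 4 tables (up to 10 by median fold change), genes called in opposite directions, listed paralogs with their partners, the stalk proteins and Rpsa, the 4 highest and 4 lowest of each aligner ratio, genes passing the platform-by-treatment term, and the 6 copies highest on each platform. Rpl35a and other genes outside this rule were named after their values were seen. A ratio used 1 added read.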

Additional observations from a re-analysis of the deposited data

Results flagged for a closer look

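In groups of 5 mice, a mouse was singled out where its gap to the nearest other mouse was above Dixon's critical share of the range (0.71 for 5 samples). Of 92 groups examined 5 had such a mouse, and chance gives about 1 in 20. Mouse ILB_9583 stood apart in 3 of them, all in the Ion Torrent STAR table: its Rpl12 level was 120.76 CPM against 148 to 156 in the other treated mice, its Rpsa level 644.81 against 496 to 534, and its Rpl22l1 level 5.0724 against 8.52 to 9.28. UNT_9584 had 141.01 CPM of Rps27l with Illumina STAR, where the other untreated mice had 108 to 115. In ILB_9577 the non-coding copies held 0.0059692% of the Ion Torrent STAR counts, against 0.0067% to 0.0070% in the other treated mice. Without ILB_9583 the Rpsa call in that table was lost.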

How the results depend on the processing

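Counts of genes called in 6 tables are given in the order GSNAP, STAR and STAR + Bowtie2 for Illumina and then Ion Torrent. The number that rose (17, 15, 14, 16, 15 and 13) became 4, 2, 2, 0, 2 and 5 by the Mann-Whitney test and 9, 2, 3, 5, 5 and 5 by library totals without TMM. DESeq2 raised it to 22 with Illumina STAR + Bowtie2 and 23 with Ion Torrent STAR, where testing only the genes detected in that table gave 24. The number that fell on Illumina (1 with each aligner) became 8, 14 and 9 by Mann-Whitney, 2, 3 and 3 by totals and 0 with no filter on low counts. With Illumina STAR it was 2 by DESeq2, limma-voom and the filter within the table, and with STAR + Bowtie2 it was 0 with median-of-ratios size factors. With each mouse left out in turn, 10 to 27, 5 to 26, 7 to 27, 7 to 18, 8 to 23 and 10 to 15 rose, and 0 to 1, 0 to 2 and 0 to 1 fell on Illumina. The cause of these changes was not tested.

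The platform-by-treatment term without the mouse block called 0 of the 80 genes with each aligner, as with it. With no filter it called 1 with GSNAP (Rpl12) and 1 with STAR + Bowtie2 (Rps29), and with a mouse left out 0 to 1 with GSNAP. The Illumina STAR share in treated mice was 1.5285% of totals multiplied by the TMM factor. Without division by totals, the median log2 ratio of GSNAP to STAR was -2.3448 on Illumina and -1.2272 on Ion Torrent, and that of STAR + Bowtie2 to STAR 0.013168 and 0.11408, where the sign turned. With copies taken by symbol alone, 68, 53, 70, 114, 18 and 111 were detected and held 0.15089%, 0.0094099%, 0.013163%, 0.14193%, 0.0025593% and 0.082528%. At 90% identity over 80% of the coding sequence they held 0.034105% with Illumina STAR + Bowtie2 and 0.0057835% with Ion Torrent STAR. Summing a gene with its copies was chosen after seeing the data.

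For 41 named genes under the 7 alternatives of test, scaling and filter other than the Mann-Whitney test, which is not in this tally, 1509 of 1595 values stayed on the same side of the threshold, 35 brought a call and 51 ended one, 42 of them without TMM. With a mouse left out, 2089 of 2280 stayed, 49 gained and 142 lost a call. Among these, 95 values that were not called changed sign. A count of 5 reads or fewer, as in Rpl3l, Rpl10l and Rpl39l, limits what depth can show.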

Other observations

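The mouse that was highest for the most ribosomal protein genes differed between the platforms, with each aligner. With the Illumina aligners ILB_9583 was the highest of the 10 libraries for 37, 31 and 25 of the 80 genes (GSNAP, STAR and STAR + Bowtie2) and ILB_9578 for 7, 14 and 15. On Ion Torrent ILB_9578 was the highest for 30, 49 and 35 genes and ILB_9583 for 25, 19 and 25. Among the treated mice ILB_9582 was most often the lowest of all 10 libraries, for 8, 6 and 7 genes on Illumina and 10, 8 and 11 on Ion Torrent. The summed share followed another order: with Illumina STAR it was 1.499% in ILB_9583 and was higher in UNT_9576 (1.57%) and ILB_9577 (1.54%), while ILB_9578 had the highest share on Ion Torrent (1.80% with STAR). The libraries of a mouse on both platforms came from the same RNA.

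Rpl22l1 was the gene that gained most from the added Bowtie2 step on Ion Torrent, with 96.2 ± 23.8 reads with STAR and 165.2 ± 42.0 with STAR + Bowtie2 (SD, n = 10; log2 ratio of shares 0.40 ± 0.16). Rpl27a (0.097 ± 0.058) and Rps6 (0.030 ± 0.041) were the only others above 0, while Rps27 (-0.39 ± 0.045), Rps29 (-0.38 ± 0.040) and Rps12 (-0.38 ± 0.052) were lowest.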
